A study of Arabidopsis thaliana with 26 samples.

Results

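The RNA 3′ ends examined here were the 4 neighbouring positions P157, P158, P159 and P160 in the 5′ ETS, the external transcribed spacer that precedes the 18S rRNA of Arabidopsis thaliana. Positions are counted in nucleotides (nt) along the P-P′ fragment, which is cut out of the primary rRNA transcript, with its 5′ end as the first. A read belonged to the group when it carried no added nucleotides and ended at one of these positions, and the positions were chosen by the shares of untailed reads themselves. In all, 13111 untailed reads out of 173861 (7.54%) ended at these 4 positions, and untailed reads were found at 389 positions in the series. All untailed shares below are therefore given as a description and without a test, and tests were kept for the tails and for a base change inside the reads. The base change is counted in the same untailed reads, so its tests are not independent of the choice of ends.

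The reads came from 3′RACE-seq, in which an adapter is ligated to RNA 3′ ends and the 5′ ETS is amplified with a primer near the P site, so that each read records one 3′ end and its possible tail. RNA from rosette leaves of pooled plants was analysed for 13 genotypes with 2 replicates each, giving 26 libraries. Wild-type Col-0 and rrp41 RRP41WT plants had an active 9-subunit exosome core (Exo9), whereas rrp41 RRP41Pi- and rrp41 RRP41Pi-Cat- plants had an inactive one. RRP41 is the Exo9 subunit that holds its phosphorolytic site. RRP41Pi- is changed in the phosphate pocket and RRP41Pi-Cat- in the phosphate pocket and the metal-binding site. RRP41WT, RRP41Pi- and RRP41Pi-Cat- were tagged transgenes under the putative RRP41 promoter in the rrp41 null mutant. Lines without a transgene carried endogenous RRP41. The same RRP41WT and RRP41Pi-Cat- transgenes, or no transgene, were combined with rrp6L2, with RRP44KD rrp6L2 and with mtr4. These genotypes are rrp6L2, rrp6L2 rrp41 RRP41WT, rrp6L2 rrp41 RRP41Pi-Cat-, RRP44KD rrp6L2, RRP44KD rrp6L2 rrp41 RRP41WT, RRP44KD rrp6L2 rrp41 RRP41Pi-Cat-, mtr4, mtr4 rrp41 RRP41WT and mtr4 rrp41 RRP41Pi-Cat-. rrp6L2 and mtr4 are T-DNA insertion lines. RRP44KD is a knockdown by an artificial microRNA and leaves some RRP44. In each background, plants with endogenous RRP41 and plants with RRP41WT form the active group and the mutated forms the inactive group, so Col-0 has 4 active and 4 inactive libraries and the other backgrounds have 4 active and 2 inactive libraries.

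The exosome is the main 3′ to 5′ RNA-degrading machine of eukaryotes. In yeast and animals its Exo9 core is a catalytically inert ring, and the hydrolytic enzymes RRP44 and RRP6 do the cutting. In plants the core itself retains a phosphorolytic activity. RRP6L2 is a nuclear RRP6-like exoribonuclease and MTR4 is an RNA helicase that assists the exosome in the nucleolus, where the excised 5′ ETS pieces are removed.

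The sequence that ends at the 4 positions is shown first, since the base at each end and the base that follows it decide how a tail can be read. In the authors' reference the stretch from P137 to P164 reads as follows, with the T at P137 and the bases P157 to P160 in capitals.
P137 to P164: TagtgttcgtaggctccatgCTCGcgca
In TAIR10.1 this stretch matched exactly 3 times, always on the plus strand, at chr3:14197251-14197278, chr2:3280-3307 and chr2:7191297-7191324. On chromosome 3 the bases P157 to P160 are 14197271, 14197272, 14197273 and 14197274. No annotated gene overlaps the copy on chromosome 3 or the first copy on chromosome 2, and the 18S rRNA genes AT3G41768 and AT2G01010 begin after a gap of 398 nt. The second copy on chromosome 2 lies inside AT2G16586. The 3 copies are identical over this stretch, so these bases do not place a read in one of them. With C in place of T at P137, a change that many reads carried, the stretch matched 0 times. The search covers only the copies held in this assembly. Whether other copies of the rRNA genes carry C was not examined.

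The final 20 nt of each end are given next, since the deposited reads matched the reference over their last 20 nt before any tail in 100% of cases. The last base and, where it is inside the 20 nt, the T at P137 are in capitals.
P156: TagtgttcgtaggctccatG
P157: agtgttcgtaggctccatgC
P158: gtgttcgtaggctccatgcT
P159: tgttcgtaggctccatgctC
P160: gttcgtaggctccatgctcG
Many reads carried C in place of T at P137 (T137C, with positions counted along P-P′ as above). For an end at P156 this base is the first of the 20 matched nt, and for P157 it falls just outside them. Among the 6498 untailed reads ending from P137 to P156, 0 carried C there, whereas 7899 of the reads at P157 to P160 carried C and 5163 carried T. P157 is thus the first end at which reads of both kinds could be recorded. None of the 4 ends is followed by an A in the reference, so an added A is never hidden at these ends. P157 is followed by T, and a single T added there reads as P158.

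The libraries held between 1464 and 16835 untailed reads (median 6244), which were between 62.5% and 98.1% of a library's reads. A count of 0 allows a share of up to 0.0178% in the deepest and 0.205% in the shallowest library, taken as 3 reads. Confidence intervals below are 95% Wilson intervals and, like these limits, cover counting error only. Replicate 1 was the deeper library in 10 of the 13 genotypes. The replicates were grown at different times, and the p-values measure the spread between these libraries.

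With active Exo9 the 4 ends together held 8.26% ± 2.04 (SD, n = 4) of the untailed reads in the Col-0 background, 7.91% ± 4.05 (n = 4) in rrp6L2, 6.17% ± 2.01 (n = 4) in RRP44KD rrp6L2 and 14.9% ± 2.96 (n = 4) in mtr4. With inactive Exo9 they held 2.06% ± 0.696 (n = 4), 1.52% ± 0.0721 (n = 2), 2.25% ± 1.46 (n = 2) and 2.74% ± 0.334 (n = 2) in the same order. In each background all inactive libraries lay below all active ones. The ratio of the active to the inactive mean was 4.002 in Col-0, 5.21 in rrp6L2, 2.74 in RRP44KD rrp6L2 and 5.45 in mtr4. The same order of active over inactive held within each replicate number. The lowest within-replicate ratio was 2.30, in replicate 1 of RRP44KD rrp6L2, and the highest was 7.65, in replicate 1 of rrp6L2.

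As background, counted end by end over the 61 positions from P140 to P200, all inactive libraries lay below all active ones at 11.5% of positions in Col-0, 27.9% in rrp6L2, 29.5% in RRP44KD rrp6L2 and 27.9% in mtr4. P157, P158 and P160 were among them in each background and P159 in mtr4 only. Active mtr4 libraries lay above all active Col-0 libraries at 23.0% of the positions, among them P157 and P158, and above all active rrp6L2 libraries at 16.4%, among them P157. None of the 4 ends was apart between rrp6L2 and Col-0, where rrp6L2 was higher at 14.8% and lower at 6.56% of the positions, nor lower in RRP44KD rrp6L2 than in rrp6L2, which held for 24.6%. These shares are set by the same reads that chose the ends and nothing is read from them.

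Just outside the first end, P155 and P156 were almost empty. With active Exo9 P156 held 0.0309% of the untailed reads in Col-0, 0.0304% in rrp6L2, 0.0615% in RRP44KD rrp6L2 and 0.321% in mtr4. P155 held at most 0.0683% in any active or inactive library. In rrp6L2 with inactive Exo9 both P155 and P156 had 0 reads in either library, which allows up to 0.0595% of the untailed reads in replicate 1. T137C reads could not be recorded at P155 and P156, so this limit does not cover them. The next end, P157, held between 0.591% and 7.31% in the active libraries. The step from P156 to P157 coincides with the end from which T137C reads were recordable, so it was also read from reads with the reference base alone. Among these, mtr4 with active Exo9 had 98 reads at P156 and 552 at P157, a ratio of 5.63. The same ratio was 3.70 in Col-0, from 10 and 37 reads, 9.27 in rrp6L2, from 11 and 102 reads, and 4.25 in RRP44KD rrp6L2, from 24 and 102 reads. With all untailed reads counted, P157 held 1862 reads in active mtr4, 318 in Col-0, 368 in rrp6L2 and 443 in RRP44KD rrp6L2. The step was thus present in reads that could be recorded on both sides of it, but was much smaller there than over all untailed reads. Just outside the last end, P161 held 9.53% ± 2.04 (n = 4) in active Col-0 and P162 0.897% ± 0.382 (n = 4). P161 is the most frequent neighbour and is one of the main degradation intermediates of this spacer.

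**Figure D1:**
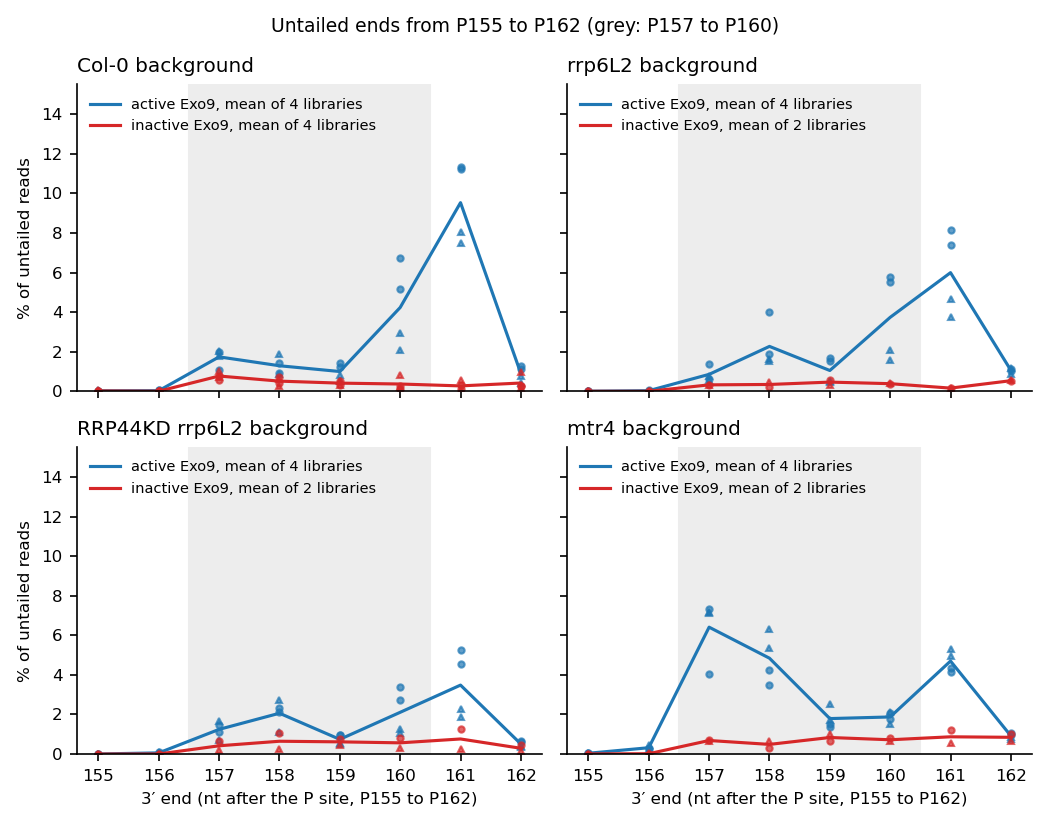
Share of untailed reads (%, vertical axis) at each 3′ end from P155 to P162 (horizontal axis, nt after the P site) in the 4 backgrounds. Blue points and lines are libraries and means with active Exo9, red ones with inactive Exo9, circles are replicate 1 and triangles replicate 2, and the grey band marks P157 to P160. The active mean climbs towards P160 and P161 in Col-0 and rrp6L2, peaks at P157 (6.41%) in mtr4, and stays above the red line throughout the band.

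P157 was the most frequent of the 4 ends in mtr4. It held 7.31% and 7.17% of the untailed reads in mtr4 replicates 1 and 2. In mtr4 rrp41 RRP41WT it held 4.05% and 7.12%. These 4 libraries lay above every other library of the series at this end. Col-0 had 1.09% and 2.05%, and rrp41 RRP41WT had 2.01% and 1.81%. rrp6L2 had 0.645% and 0.796%, and rrp6L2 rrp41 RRP41WT had 1.39% and 0.591%. RRP44KD rrp6L2 had 1.48% and 1.68%, and RRP44KD rrp6L2 rrp41 RRP41WT had 1.14% and 0.697%. Outside mtr4, the active libraries thus stayed between 0.591% and 2.05%, and the genotypes from RRP44KD rrp6L2 down to RRP44KD rrp6L2 rrp41 RRP41WT overlapped with their neighbours in the order of the means.

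With inactive Exo9, P157 was low in all backgrounds. rrp41 RRP41Pi- had 0.771% and 1.03%, and rrp41 RRP41Pi-Cat- had 0.571% and 0.712%. rrp6L2 rrp41 RRP41Pi-Cat- had 0.317% and 0.333%, the lowest genotype mean. RRP44KD rrp6L2 rrp41 RRP41Pi-Cat- had 0.650% and 0.188%, and mtr4 rrp41 RRP41Pi-Cat- had 0.717% and 0.657%. The inactive mtr4 libraries thus fell into the range of the inactive Col-0 libraries. The active mean was 9.34 times the inactive mean in mtr4, against 2.25 in Col-0, 2.63 in rrp6L2 and 2.98 in RRP44KD rrp6L2. The mtr4 mean with active Exo9, 6.41% ± 1.58 (n = 4), was 3.69 times that of Col-0 and 7.49 times that of rrp6L2. In reads with the reference base alone, P157 held 3.05% ± 0.808 (n = 4) in active and 0.439% ± 0.205 (n = 2) in inactive mtr4, and P158, with 3.80% in active mtr4, was the more frequent end. In Col-0 it held 0.463% ± 0.311 (n = 4) with active and 0.371% ± 0.112 (n = 4) with inactive Exo9, a ratio of 1.25, and the libraries overlapped. The separation of active and inactive Col-0 libraries at P157 thus did not hold in these reads, nor did it at P158, and in RRP44KD rrp6L2 it held at P160 only.

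P158 followed P157 in mtr4 and was also frequent in the rrp6L2 lines. mtr4 had 4.23% and 5.35%, and mtr4 rrp41 RRP41WT had 3.48% and 6.32%. rrp6L2 had 1.90% and 1.62%, and rrp6L2 rrp41 RRP41WT had 4.03% and 1.53%. A single library, rrp6L2 rrp41 RRP41WT replicate 1, thus reached into the mtr4 range. RRP44KD rrp6L2 had 2.11% and 2.72%, and RRP44KD rrp6L2 rrp41 RRP41WT had 2.31% and 1.11%. Col-0 had 0.925% and 0.888%, and rrp41 RRP41WT had 1.44% and 1.91%. The values of these 2 genotypes did not overlap at P158, but they did at P157, P159 and P160. With 2 libraries each, such a separation cannot be told apart from chance. The study describes the profiles of these 2 genotypes as identical.

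With inactive Exo9, P158 ranged from 0.290% to 0.707% over the 4 Col-0 background libraries. It was 0.198% and 0.492% in rrp6L2 rrp41 RRP41Pi-Cat-, and 0.322% and 0.657% in mtr4 rrp41 RRP41Pi-Cat-. RRP44KD rrp6L2 rrp41 RRP41Pi-Cat- spanned the widest range, with 1.06% in replicate 1 and 0.235% in replicate 2. The active mean was 2.51 times the inactive mean in Col-0, 6.57 times in rrp6L2, 3.18 times in RRP44KD rrp6L2 and 9.90 times in mtr4. The active mtr4 mean of 4.84% ± 1.25 (n = 4) was 3.75 times that of Col-0 and 2.14 times that of rrp6L2, with overlap between libraries in the latter case.

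P159 had the lowest or second lowest mean of the 4 ends in each background with active Exo9, and the narrowest range of genotype means. Its active mean was 0.999% ± 0.411 in Col-0, 1.05% ± 0.641 in rrp6L2, 0.744% ± 0.252 in RRP44KD rrp6L2 and 1.79% ± 0.507 in mtr4 (n = 4 each). The inactive means were 0.412% ± 0.118 (n = 4), 0.464% ± 0.185 (n = 2), 0.618% ± 0.209 (n = 2) and 0.838% ± 0.234 (n = 2). Active and inactive libraries overlapped at this end in Col-0, rrp6L2 and RRP44KD rrp6L2, and were apart in mtr4. In the 6 active genotypes outside mtr4, replicate 1 was higher than replicate 2 each time, by 1.72 to 3.3 times.

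P160 was the most frequent end in Col-0 and rrp6L2 and differed most between replicates. Col-0 had 6.74% (95% confidence interval 6.27 to 7.25) in replicate 1 and 2.94% (2.19 to 3.93) in replicate 2. rrp41 RRP41WT had 5.18% and 2.08%. rrp6L2 had 5.52% and 1.58%, and rrp6L2 rrp41 RRP41WT had 5.76% and 2.09%. Replicate 1 was again the higher one each time, and the counting intervals of the Col-0 replicates were far apart. RRP44KD rrp6L2 had 3.39% and 1.27%, and RRP44KD rrp6L2 rrp41 RRP41WT had 2.73% and 1.05%. Over these 6 genotypes replicate 1 exceeded replicate 2 by 2.30 to 3.50 times (median 2.64). In mtr4 the replicates were close, with 1.77% and 1.51% in mtr4 and 2.08% and 2.14% in mtr4 rrp41 RRP41WT. Depth also differed between the replicate numbers, and its part in the difference at P160 was not tested.

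With inactive Exo9, P160 held 0.129% and 0.838% in rrp41 RRP41Pi- and 0.267% and 0.237% in rrp41 RRP41Pi-Cat-. It held 0.357% and 0.412% in rrp6L2 rrp41 RRP41Pi-Cat-, 0.807% and 0.329% in RRP44KD rrp6L2 rrp41 RRP41Pi-Cat-, and 0.790% and 0.657% in mtr4 rrp41 RRP41Pi-Cat-. All inactive libraries of a background were below all its active ones, and replicate 1 was no longer regularly above replicate 2. The active mean was 11.5 times the inactive mean in Col-0, 9.71 times in rrp6L2, 3.72 times in RRP44KD rrp6L2 and 2.59 times in mtr4. Within replicate 1 the Col-0 ratio was 30.1, and within replicate 2 it was 4.67. At P157, in contrast, mtr4 had the largest ratio, both over all libraries and within each replicate number, where it was 7.93 and 10.9.

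**Figure D2:**
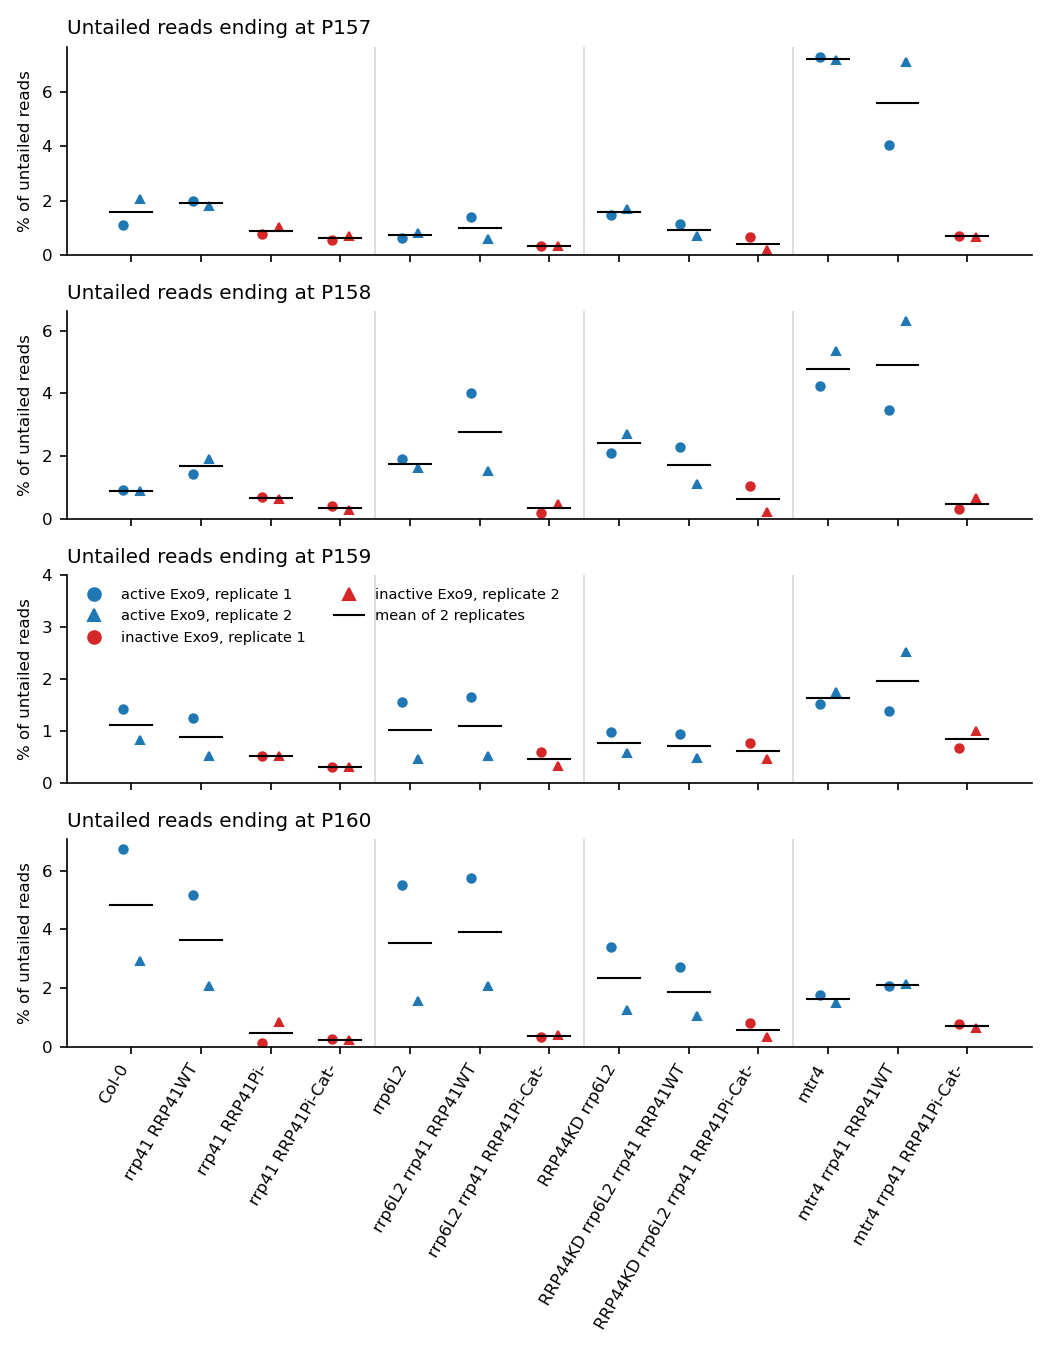
Share of untailed reads (%, vertical axis) at P157, P158, P159 and P160, one panel each with its own scale, for the 13 genotypes (horizontal axis). Each point is a library (blue active, red inactive Exo9, circle replicate 1, triangle replicate 2), black bars are means of 2 replicates and grey lines part the backgrounds. The active mtr4 libraries stand highest at P157 (4.05% to 7.31%), and at P160 the replicate 1 libraries of Col-0 and rrp6L2 do (5.18% to 6.74%).

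The make-up of the 4 ends, counted as a share of their own reads, differed by background. In active Col-0, P160 was the most frequent end in 4 of 4 libraries and held 48.9% ± 14.1 of the reads, followed by P157 with 22.6% ± 9.07. In active rrp6L2, P160 held 45.4% ± 9.07 and P158 29.9% ± 7.11, and P160 was the most frequent end in 3 of 4 libraries. In active RRP44KD rrp6L2, P158 with 34.0% ± 7.10 and P160 with 33.2% ± 9.71 were alike, each leading in 2 libraries. In active mtr4, P157 led in 4 of 4 libraries with 42.7% ± 5.67, P158 held 32.2% ± 2.84 and P160 only 13.1% ± 4.06 (n = 4 for each mean). Over all untailed reads the mode of the window thus lay at its last base in active Col-0 and at its first base in active mtr4. T137C reads were recordable only from P157 on. In reads with the reference base alone, P158 (3.80% ± 0.863) was above P157 (3.05% ± 0.808) in active mtr4. P160 stayed the highest of the 4 ends in active Col-0 (3.46% ± 2.62, n = 4 each). P159 held between 11.7% and 12.7% on average in all 4 active groups.

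With inactive Exo9 the reads were spread more evenly. In Col-0 P157 led in 4 of 4 inactive libraries with 38.2% ± 5.17 and P160 held 16.5% ± 8.86. In the other backgrounds P159 had the highest mean, with 30.9% ± 13.7 in rrp6L2, 30.9% ± 10.7 in RRP44KD rrp6L2 and 30.3% ± 4.84 in mtr4 (n = 2 each), and led in 1 of 2 libraries of each. These libraries held few reads at the 4 ends, with 26 in RRP44KD rrp6L2 rrp41 RRP41Pi-Cat- replicate 2 and 33 in rrp41 RRP41Pi- replicate 1. Their make-up therefore carries wide counting intervals. In reads with the reference base alone, P157 was not ahead in inactive Col-0. It held 0.371% ± 0.112 there, against 0.486% ± 0.462 at P158 and 0.420% ± 0.302 at P159 (n = 4 each).

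**Figure D3:**
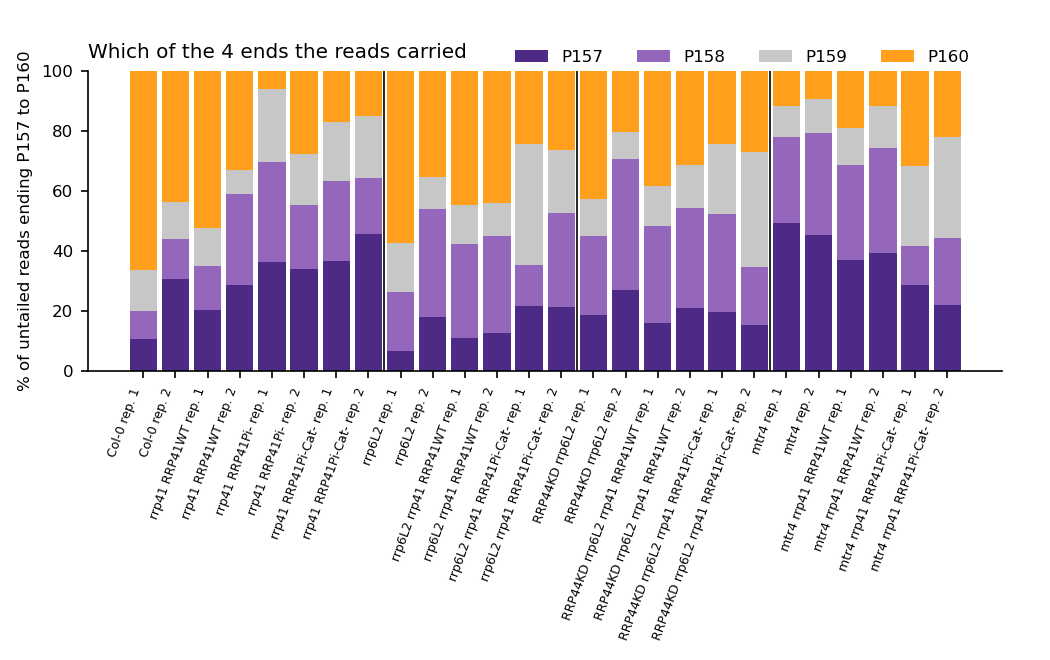
Share of each end (%, stacked bars) among the untailed reads ending at P157 to P160, for the 26 libraries (horizontal axis, black lines part the backgrounds). P160 (orange) is the widest part in the active Col-0 libraries, with a mean of 48.9%, and P157 (dark purple) in the active mtr4 libraries, with a mean of 42.7%. The bars count all untailed reads, whichever base they carry at P137.

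P160 borders on P161. Of the untailed reads at P160 and P161 together, P160 took 29.4% ± 7.002 in active Col-0, 36.3% ± 8.00 in active rrp6L2, 37.1% ± 1.60 in active RRP44KD rrp6L2 and 28.6% ± 4.11 in active mtr4 (n = 4 each). In inactive Col-0 it took 58.4% ± 21.0 (n = 4), in inactive rrp6L2 70.5% ± 5.39, in inactive RRP44KD rrp6L2 48.4% ± 14.1 and in inactive mtr4 47.1% ± 10.5 (n = 2 for each of the latter). P161 outnumbered P160 in every active library, and the inactive libraries were mixed.

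Tails were examined as a readout that the choice of ends did not use, although the untailed reads are part of the denominator of a tailed share. At the 4 ends 6392 reads were tailed, 32.8% of all reads ending there. Single added nucleotides made up 27.8% of the tails, of which 72.6% were A and 18.7% were T. Of the 4612 tails of at least 2 nt, 55.8% were made of A only, and their median length was 7 nt. The study notes that a single mismatching nucleotide can also come from a sequence polymorphism, so longer tails are given beside all tails.

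The 4 ends were not tailed alike, and P159 stood lowest in most libraries. Of the 23 libraries with at least 10 reads at each of the 4 ends, P159 had the lowest tailed share in 19 and P160 the highest in 15. The low value of P159 was found in each active group, with 7.72% ± 6.91 in active Col-0, 14.8% ± 5.73 in active rrp6L2, 22.8% ± 7.21 in active RRP44KD rrp6L2 and 10.7% ± 2.16 in active mtr4 (n = 4 each). The bordering P160 had 17.0% ± 7.70, 42.2% ± 5.72, 50.0% ± 2.99 and 29.5% ± 6.42 in the same groups. In active Col-0, P160 was not above P157 (19.4% ± 3.33) or P158 (21.7% ± 8.16), and in active RRP44KD rrp6L2 the means of P157 (41.5%) and P158 (40.8%) differed by less than the spread of the libraries (n = 4 each). Which additions can be seen differs by end, since an added base equal to the next reference base is read as encoded.

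Single added nucleotides were distributed unevenly over the ends. At P157 they were 48.4% of the tails, with 516 single A and 0 single T among 580, the T being the base that follows P157 in the reference. At P158 they were 27.7% of the tails, with 320 single A and 187 single T among 552. At P160 they were 17.9%, with 355 single A and 119 single T among 513, and at P159 40.1% of only 337 tails. Single nucleotides were most frequent at P157 in active mtr4, where they made up 63.0% of 346 tails. Tails at P160 were thus mostly longer ones, and tails at P157 were to a large part single A.

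The tailed share at the 4 ends was higher in active rrp6L2 than in active Col-0 in every library. Col-0 had 21.1% and 17.6% in replicates 1 and 2, and rrp41 RRP41WT had 18.7% and 14.7%. rrp6L2 had 39.9% and 33.6%, and rrp6L2 rrp41 RRP41WT had 47.3% and 37.4%. The difference was 21.5 points, between 39.5% ± 5.76 (n = 4) and 18.0% ± 2.62 (n = 4), with an exact two-sided permutation p of 0.0286, which is the smallest that 4 against 4 libraries can give, and 0.0571 after Benjamini-Hochberg adjustment over 8 tests. It was 23.7 points within replicate 1 and 19.3 points within replicate 2. The adjusted p did not pass 0.05. Neighbouring ends differed in the same direction. At P161 to P162 the mean tailed share was 25.2% in active Col-0 and 34.6% in active rrp6L2, and the libraries overlapped. At P163 to P167 it was 1.85% and 3.90% in the same order, and the libraries did not overlap (n = 4 each). A higher tailed share in active rrp6L2 was thus not particular to the 4 ends. Whether the difference was larger at the 4 ends was not tested.

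RRP44 knockdown added to rrp6L2 gave a mean of 42.8% ± 6.23 (n = 4), 3.23 points above rrp6L2, which was within the spread of the libraries (exact permutation p = 0.429, adjusted 0.559). mtr4 with active Exo9 had 17.9% ± 1.15 (n = 4), a difference of -0.152 points from Col-0 (exact permutation p = 0.914, adjusted 0.914). The individual mtr4 values were 18.99%, 17.5%, 16.5% and 18.6%. The mtr4 lines thus had the largest untailed share at these ends and a tailed share in the range of Col-0.

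Inactive Exo9 went with different directions of the mean tailed share by background, though active and inactive libraries overlapped in each. The Col-0 background mean was 27.8% ± 8.24 (n = 4), 9.81 points above the active libraries, with 38.9% and 18.97% in rrp41 RRP41Pi- and 27.3% and 26.2% in rrp41 RRP41Pi-Cat-. It was 28.9% ± 8.79 (n = 2) in rrp6L2, where the difference was -10.7 points. It was 35.7% ± 5.76 (n = 2) in RRP44KD rrp6L2, where the difference was -7.10 points, and 17.1% ± 1.56 (n = 2) in mtr4, where it was -0.800 points. Over all 26 libraries the inactive mean of 27.5% (SD 8.63, 10 libraries) and the active mean of 29.5% (SD 12.7, 16 libraries) differed by -2.09 points, which did not pass an exact permutation test within backgrounds (p = 0.490, adjusted 0.559). This difference of plain means includes the mix of backgrounds, since Col-0 makes up 4 of the 10 inactive and 4 of the 16 active libraries. The overall mean thus combines mean differences of opposite sign.

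**Figure D4:**
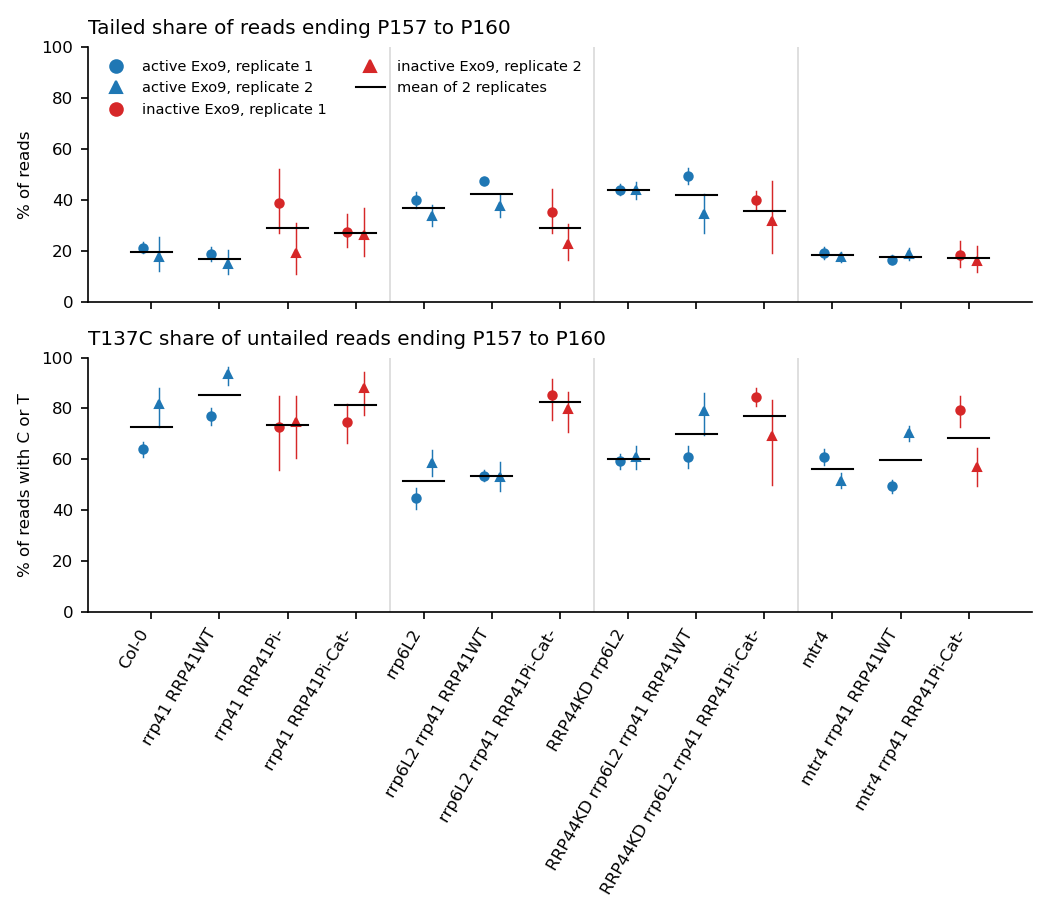
Tailed share (%, upper panel) of reads ending at P157 to P160 and T137C share (%, lower panel) of the untailed reads there with C or T at P137, for the 13 genotypes. Points are libraries (blue active, red inactive Exo9, circle replicate 1, triangle replicate 2), thin lines are 95% Wilson intervals and black bars are means of 2 replicates. The active rrp6L2 and RRP44KD rrp6L2 lines have tailed shares of 33.6% to 49.2%, above the 14.7% to 21.1% of the active Col-0 and mtr4 lines.

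The tailed reads, which the choice of ends did not use, were also placed by their own ends. In active Col-0, 14.5% ± 2.27 (n = 4) of all tailed reads ended at the 4 positions, in active rrp6L2 18.9% ± 9.47, in active RRP44KD rrp6L2 9.37% ± 3.81 and in active mtr4 12.7% ± 2.81 (n = 4 each). With inactive Exo9 the share was 23.5% ± 8.70 (n = 4) in Col-0, 3.57% ± 0.583 (n = 2) in rrp6L2, 2.78% ± 1.98 (n = 2) in RRP44KD rrp6L2 and 3.27% ± 0.890 (n = 2) in mtr4. The Col-0 libraries overlapped (12.4% to 17.6% active, 12.6% to 32.3% inactive), and the inactive ones had few tailed reads in all, 65 to 232 against 170 to 1571. Taken as a share of all reads of a library, tailed reads at the 4 ends were 1.65% ± 0.616 (n = 4) in active and 0.769% ± 0.355 (n = 4) in inactive Col-0. On that scale they were 4.36% and 0.531% in rrp6L2, 3.22% and 0.914% in RRP44KD rrp6L2, and 2.60% and 0.476% in mtr4, with the inactive mean the lower one in each background. All inactive libraries lay below all active ones at P157, P158 and P160 in rrp6L2 (18.0% of the 61 positions did so) and in mtr4 (26.2%), at P160 alone in RRP44KD rrp6L2 (18.0%), and at none of the 4 ends in Col-0 (3.28%). As percent of all tailed reads of a library, active mtr4 had less at P160 (3.05% ± 0.741) than at P157 (4.64% ± 1.30). On the same scale active rrp6L2 had 9.86% ± 5.53 at P160 and 2.06% ± 1.03 at P157 (n = 4 each).

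The tailed share was higher at P157 to P160 than at P163 to P167, but not than at the ends that directly follow. Over the 13 genotypes the mean tailed share was 28.7% ± 10.4 at P157 to P160 and 8.54% ± 6.98 at P163 to P167. The difference of 20.2 points had the same sign in 13 of 13 genotypes (exact sign-flip test over genotype means, p = 0.000244, the smallest it can give, and 0.000326 after adjustment over 4 tests). P163 is followed by an A in the reference, so a single A added there reads as an untailed P164. The part of this in the difference was not tested. P161 and P162, with 32.5% ± 4.41, differed from the 4 ends by 3.75 points in the other direction, which did not pass the test (exact p = 0.159, adjusted 0.159), and the 4 ends were the higher ones in 5 of 13 genotypes. With single added nucleotides left out, the difference turned to 6.20 points in favour of the 4 ends (adjusted exact p = 0.0305), so the comparison with P161 and P162 depends on how single nucleotides are counted. P162 is followed by C and then A in the reference. The authors dropped reads whose second unmatched nucleotide fitted the reference, which can touch A tails at P162. The part of this in the difference was not tested either.

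The second readout was the T137C base, counted in the same untailed reads whose shares chose the ends. Of the untailed reads at the 4 ends with C or T at P137, 60.5% carried C. P157 had the highest T137C share of the 4 ends in 20 of the 22 libraries with at least 10 such reads at each end, and P160 the lowest in 12. In active mtr4 the mean share was 71.2% ± 6.43 at P157, 51.5% ± 12.8 at P158, 48.0% ± 12.6 at P159 and 39.1% ± 7.99 at P160 (n = 4 each). In active rrp6L2 the means were 71.7% ± 5.16, 55.0% ± 9.98, 50.8% ± 7.51 and 46.0% ± 6.66, and in active RRP44KD rrp6L2 80.1% ± 10.5, 62.2% ± 10.2, 64.9% ± 10.3 and 57.9% ± 8.79 (n = 4 each). In active Col-0 they were 90.6% ± 6.39, 76.7% ± 9.85, 78.8% ± 17.3 and 75.7% ± 12.6. The share was thus highest at P157 in each background and the later ends were closer to each other.

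**Figure D5:**
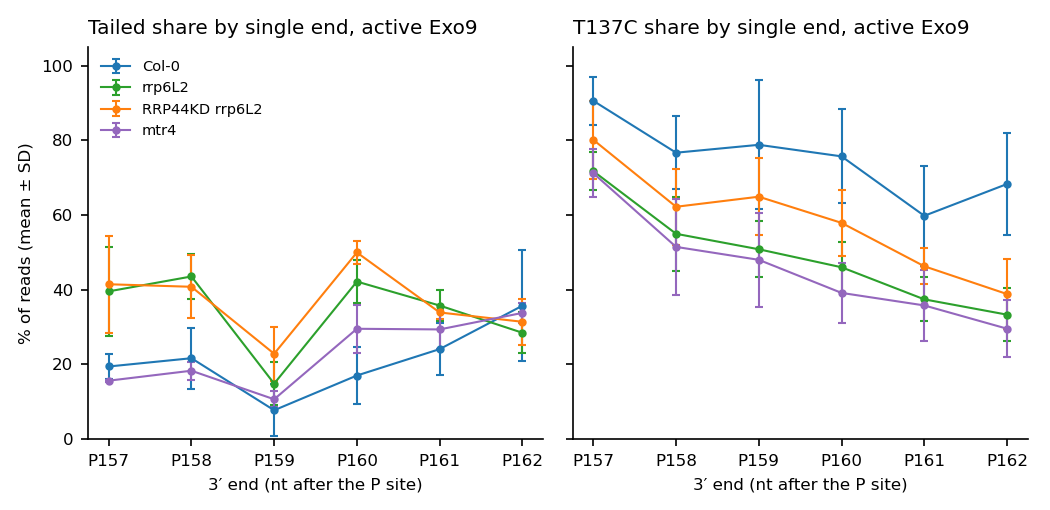
Tailed share (%, left) and T137C share of untailed reads (%, right) at each end from P157 to P162 (horizontal axis) with active Exo9, as the mean over libraries with at least 10 reads and its SD (bars), one colour for each background. P159 is the lowest of the ends in the left panel, from 7.72% in Col-0 to 22.8% in RRP44KD rrp6L2, and P157 the highest in the right panel, from 71.2% in mtr4 to 90.6% in Col-0.

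Both neighbouring groups of ends had lower T137C shares. Over 13 genotypes the share was 68.8% ± 11.7 at P157 to P160 and 49.0% ± 16.5 at P161 to P162, with 3 libraries left out for having under 10 reads. The difference of 19.8 points was positive in 13 of 13 genotypes (exact sign-flip p = 0.000244, adjusted 0.000326). Against P163 to P167, with 53.4% ± 17.8, the difference was 15.2 points and positive in 13 of 13 genotypes (exact sign-flip p = 0.000244, adjusted 0.000326). In both comparisons this p is the smallest the test can give.

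T137C shares at the 4 ends varied over genotypes, and no contrast passed after adjustment over the 8 tests. The active Col-0 background had 79.0% ± 12.2 (n = 4), with 64.0% and 81.6% in Col-0 and 76.9% and 93.5% in rrp41 RRP41WT. Active rrp6L2 had 52.5% ± 5.82 (n = 4), with no library above 58.7%. The difference was -26.5 points (exact permutation p = 0.0286, adjusted 0.0571), and the groups did not overlap. RRP44KD rrp6L2 was 12.5 points above rrp6L2, at 65.0% ± 9.34 (n = 4; exact permutation p = 0.0286, adjusted 0.0571). mtr4 was at 58.0% ± 9.54 (n = 4), with a difference of -21.0 points from Col-0 (exact permutation p = 0.0571, adjusted 0.0914). The neighbouring ends differed in the same directions. At P161 to P162 the active means were 59.9% in Col-0, 36.8% in rrp6L2, 45.4% in RRP44KD rrp6L2 and 34.7% in mtr4. At P163 to P167 they were 67.9%, 36.9%, 43.5% and 28.9% in the same order. Differences of these signs were thus not particular to the 4 ends.

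Inactive Exo9 libraries had a mean T137C share of 76.6% (SD 9.10, 10 libraries) against 63.6% (SD 13.3, 16 libraries) for active ones, a difference of 12.9 points (exact permutation p within backgrounds 0.0118, adjusted 0.0571). Col-0, with the highest active mean (79.0%), makes up 4 of the 10 inactive and 4 of the 16 active libraries. The difference of these plain means thus includes the mix of backgrounds, and the p was counted around 0 without allowing for it. By background the difference was -1.48 points in Col-0, 29.96 in rrp6L2, 11.96 in RRP44KD rrp6L2 and 10.3 in mtr4. At P163 to P167 it was -0.234, 36.7, 27.4 and 31.0 points in the same order, so it was not particular to the 4 ends. At the 4 ends the difference over all backgrounds was 20.7 points within replicate 1 and 5.20 within replicate 2. Without rrp41 RRP41WT replicate 2 it was 14.9 points with an adjusted p of 0.0282, and with tailed reads included it was 13.8 points with an adjusted p of 0.0360, so the call turns on 1 library and on that choice. In rrp6L2 rrp41 RRP41Pi-Cat- the 2 libraries had 85.1% and 79.8%, above all 4 active rrp6L2 libraries. The Col-0 background values of active and inactive libraries overlapped.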

How the data were processed

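The authors trimmed and deduplicated the 3′RACE-seq read pairs and mapped each 3′ end to the rRNA unit, removing up to 30 nt of unmatched tail. They dropped reads whose second unmatched nucleotide fitted the reference, and required runs of A or T in long tails. The deposited table has 1 row for each read with its 3′ end, encoded sequence, tail, genotype and replicate. Samples were assigned from the labels. Rows (224354) were counted by end with Python 3.11 scripts (numpy, pandas). Untailed shares are percent of a library's untailed reads. Libraries with at least 10 reads entered a test. Exact two-sided permutation tests compared library shares, within backgrounds for Exo9, and an exact sign-flip test over 13 genotype means compared groups of ends. p-values were adjusted by Benjamini-Hochberg over 8 and over 4 tests, at a threshold of 0.05. The permutation code was tested on simulated data. The reference stretch was searched in TAIR10.1. The ends and the tests were chosen with earlier results of these data known. Described in full were all 4 ends in 13 genotypes and the 2 ends on either side. Alternatives were a minimum of 5 or 20 reads, tails of at least 2 nt, tailed and untailed reads together, other denominators, a replicate block and leaving out each library. Reference-base reads by single end and tailed reads as a share of all reads were added after seeing the data.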

Additional observations from a re-analysis of the deposited data

Results flagged for a closer look

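Among 35 groups of 4 libraries, 4 held a library far from the other 3, where chance gives about 1 in 20. At P157 the untailed share of mtr4 rrp41 RRP41WT replicate 1 was 4.05%, against 7.12% to 7.31% in the other active mtr4 libraries. At P158 rrp6L2 rrp41 RRP41WT replicate 1 had 4.03%, against 1.53% to 1.90% in the other active rrp6L2 libraries. The T137C share at P157 to P160 was 88.1% in rrp41 RRP41Pi-Cat- replicate 2, against 72.7% to 74.8% in the other inactive Col-0 background libraries. It was 78.9% in RRP44KD rrp6L2 rrp41 RRP41WT replicate 2, against 59.2% to 61.0% in the other active libraries of that background.

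The mean tailed share moved in opposite directions with Exo9 inactivation, though active and inactive libraries overlapped in each background. All 4 inactive Col-0 background libraries lay above the active mean, on average by 9.81 points, while both inactive libraries lay below it in rrp6L2 (-10.7 points) and in RRP44KD rrp6L2 (-7.10 points). The difference between the backgrounds was not tested.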

How the results depend on the processing

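The minimum number of reads changed no call. With tails of at least 2 nt the tailed share at P157 to P160 minus P161 to P162 turned from -3.75 to 6.20 points. With tailed reads included the T137C difference between inactive and active Exo9 passed the threshold at 13.8 points, and leaving out 1 library moved it between 11.6 and 15.1 points. The tailed share of mtr4 minus Col-0 lay between -1.25 and 0.860 points when 1 library was left out, and its sign turned without Col-0 replicate 1, rrp41 RRP41WT replicate 1 or mtr4 rrp41 RRP41WT replicate 1. No other contrast changed its call without a library. In the fits with a replicate block the differences are the same by construction (21.5 points for the tailed share and -26.5 points for the T137C share in rrp6L2 minus Col-0), the smallest possible exact p for 4 against 4 rises to 0.0556, and the T137C difference of 12.9 points between inactive and active Exo9 has an exact p of 0.0178. The replicates share only a number, since nothing says that equal numbers were grown together; replicate 1 had the higher tailed share in 12 of 13 genotypes and the higher T137C share in 5. Untailed shares of P157 to P160 from reads with the reference base alone were 5.52% in active Col-0, 10.3% in active mtr4 and 1.06% in inactive rrp6L2. The share of inactive rrp6L2 was 1.68% of the untailed reads from P140 to P200 and 1.83% with tailed reads included, and that of inactive mtr4 was 3.32% of the untailed reads from P140 to P200. Alternatives by single end, chosen after seeing the data, used reads with the reference base alone, and the difference between inactive and active Exo9 at P159 in RRP44KD rrp6L2 turned from -0.126 to 0.0882 points. Tailed reads at the 4 ends in Col-0, 9.02 points higher with inactive Exo9 as a share of tailed reads, were at -0.883 points as a share of all reads.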
